A study of Mus musculus with 6 samples.

Results

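RNA of mouse HACA cells in which a short hairpin RNA was directed against Loxl2 (shLoxl2) was set against RNA of the shGFP control line, whose hairpin targets GFP. The data are the 4 arrays whose titles name shLoxl2, of 6 arrays in the series. The other two, of a shSNAIL line against the same control, lend only their spread to the tests. Each is an Agilent 2-colour oligonucleotide array on which shLoxl2 RNA carried one dye and shGFP RNA the other. The titles give 2 replicate numbers, each hybridised once with the shLoxl2 RNA in Cy3 and once in Cy5, so the 2 arrays of a number were averaged and n = 2. No treatment or time is named, and HACA is not spelled out in the labels. They do not state how many hairpins were used, whether the silenced cells were a clone or a pool, or whether the 2 numbers were separate cultures. The p-values below therefore measure only the spread between these samples, which may be technical. The shGFP RNA on all arrays counts as 1 control sample, so its own spread is left out. Values given without a replicate rest on 1 shLoxl2 average. Their p-values and counts borrow the spread of the shSNAIL arrays, which were not dye-swapped, and do not measure the spread of shLoxl2 RNA.

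Loxl2 belongs to the lysyl oxidase family, secreted copper enzymes that oxidise lysine residues of collagen and elastin, and it is also known as a partner of the transcription factor Snail in epithelial-mesenchymal transition. In the epidermis, dividing basal keratinocytes are held to the basement membrane by hemidesmosomes. When they leave that layer they stop dividing, switch keratins and build the cornified envelope, a shell of crosslinked proteins and lipids. Keratinocytes also make their own growth signals, among them ligands of the EGF family and prostaglandin E2.

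The first check was on the silenced gene itself. At chromosome 14, 68427414 to 68427473 (mm8), the Loxl2 probe gave log2 ratios of shLoxl2 over shGFP of 1.38 and 1.04 with the silenced RNA in Cy3 and of -1.30 and -0.68 with it in Cy5. The sign followed the dye, not the hairpin. The mean was 0.11 (SE 0.12, n = 2, limma adjusted p = 0.59), and the signal cleared background in 2 of 4 shLoxl2 channels and in 1 of 4 shGFP channels. Snai1, which encodes Snail, cleared background in 0 of 4 and 2 of 4, so no fold is given for it. Neither probe checks the labels, and each direction given here rests on them alone.

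The red channel was well above background at 88.6% to 92.4% of probe spots on these arrays and the green channel at 55.9% to 65.6%. Part of each ratio stayed with the dye when the dyes were exchanged. Over probes, the SD of this dye effect was 0.46 (log2), and the SD of the shLoxl2 response was 0.45. Averaging the orientations cancels it, and the averages of replicates 1 and 2 correlated at 0.68 across probes, which are not independent replicates. The 2 single arrays of a number, turned to the same direction, correlated at only 0.029 in replicate 1 and -0.026 in replicate 2.

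**Figure D1:**
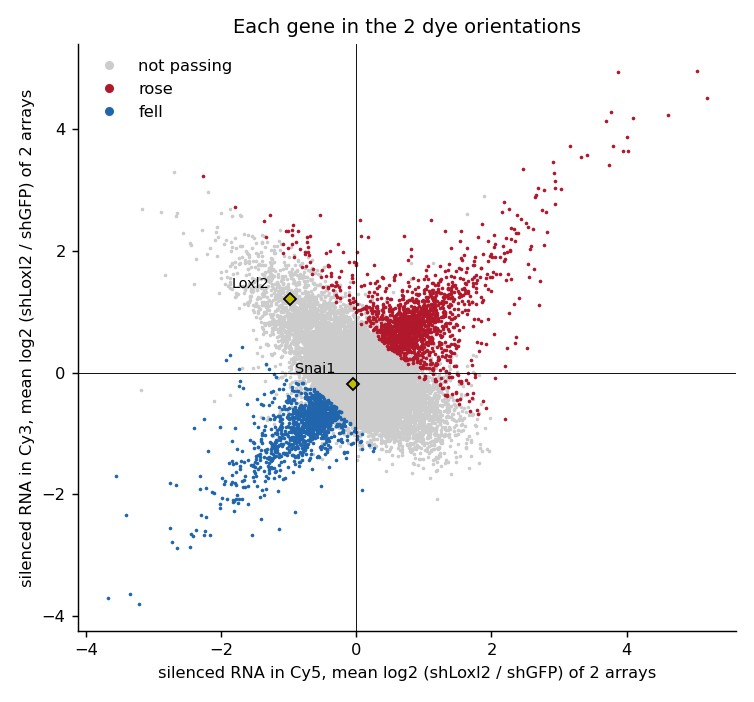
Each point is a gene, with its mean log2 ratio of shLoxl2 over shGFP on the 2 arrays with silenced RNA in Cy5 (horizontal) and on the 2 with it in Cy3 (vertical); red genes rose, blue genes fell and grey genes did not pass limma's test. Responses lie along the rising diagonal and dye effects along the falling one, where the Loxl2 probe sits at -0.99 and 1.21.

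The cells carried keratinocyte transcripts. Of 12 keratinocyte markers, 9 were well above background in both channels of all 4 arrays, among them Krt5, Krt14 and Trp63, while Krt1, Cdh1 and Dsg3 were not. The mesenchymal markers Vim, Cdh2, Fn1 and Acta2 were above background to the same extent, 4 of 4, and none of them passed (log2 fold changes from -0.28 to 0.38). None of 12 tested endothelial markers was above background throughout. The counts were 2 of 4 for simple epithelial, 4 of 11 for fibroblast, 6 of 17 for leukocyte, 1 of 10 for melanocyte and 6 of 17 for muscle and neural markers. Of all 19550 tested probes, 9610 were above background in both channels of all 4 arrays, the share beside which these counts stand. The fibroblast genes above background throughout were Pdgfra, Prrx1, S100a4 and Twist2. The leukocyte genes above background throughout were Adgre1, Cd14, Cd3e, Cd68, Coro1a and Csf1r. Others of these lists were dimmer. The fibroblast collagen Col1a1 was above background in 2 of 4 channels on each side and the macrophage gene Lyz2 in 1 of 4. Ptprc, the defining leukocyte gene, was not tested because its probe was too dim. In RNA from whole cultures, fewer cells of a type and less RNA per cell cannot be told apart.

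Of 18227 genes tested, 2636 (14.5%) passed limma's test at an adjusted p of 0.05 after Benjamini-Hochberg adjustment over all probes. There were 1548 that rose (8.49%) and 1088 that fell (5.97%), of which 1363 and 1053 had the same sign on all 4 arrays, as had 5098 of all genes tested. Of 19550 probes, 1593 rose (8.15%) and 1156 fell (5.91%), together 14.1%. At least 2-fold changes were measured for 420 rises and 288 falls, and at least 4-fold changes for 65 rises and 29 falls. The shares 8.49% and 5.97% are the background against which the gene lists are read, and the median over all genes was -0.0083. The replicates did not weigh equally, since without replicate 1 the probes passing fell from 2749 to 1771.

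**Figure D2:**
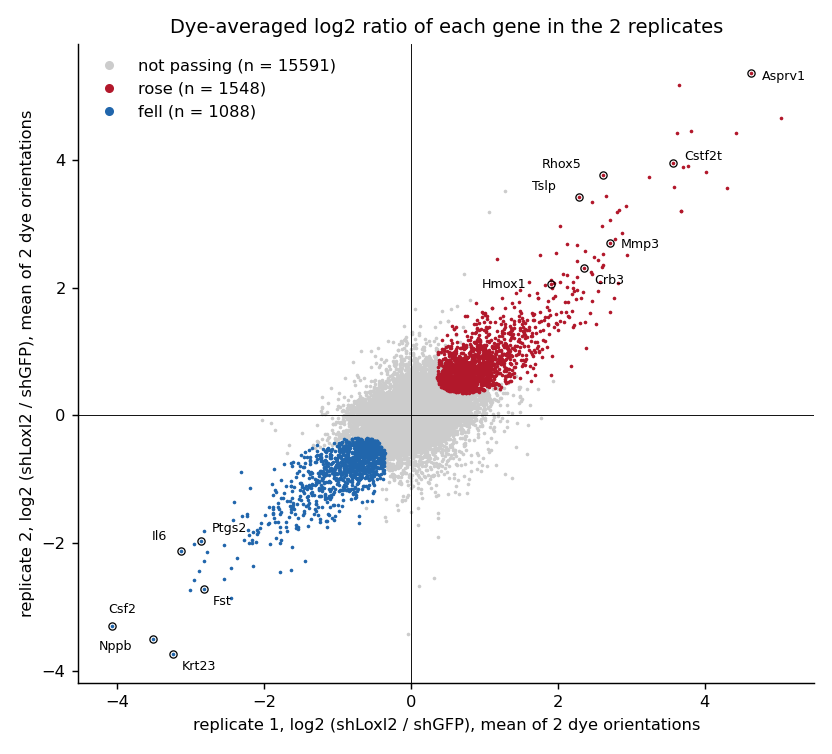
Each point is a gene, with its dye-averaged log2 ratio of shLoxl2 over shGFP in replicate 1 (horizontal) and replicate 2 (vertical); 1548 genes rose (red), 1088 fell (blue) and the rest did not pass (grey). The genes with the largest changes lie near the diagonal, from Csf2 at -4.07 and -3.30 to Asprv1 at 4.64 and 5.36.

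Csf2 and Nppb had the largest falls outside the differentiation and cell cycle lists. Csf2, which encodes the cytokine GM-CSF (chromosome 11, 54090693 to 54090720, mm8), had log2 ratios of -4.19 and -3.95 on the arrays of replicate 1 and of -3.21 and -3.39 on those of replicate 2. Its mean of -3.69 (SE 0.30, n = 2) is 12.9-fold lower, with a limma adjusted p of 0.0024. Nppb, the natriuretic peptide B precursor (chromosome 4, 146830180 to 146830239, mm8), read -3.74, -3.29, -3.86 and -3.15 on the 4 arrays, with a mean of -3.51 (limma adjusted p = 0.00056). Both were low on each array. The replicate averages of Nppb lay close together (-3.52 and -3.51), while those of Csf2 differed more (-4.07 and -3.30). Next came Slitrk6, a transmembrane protein of neurons and epithelia (-2.87), Fst, the activin-binding protein follistatin (-2.77), and Tcim (-2.76). The other falls among the largest 15 were of Pde4b, Ptger2, Il6, Dhrs1, Creb3l2, Nrg1, Pthlh, Igfbp2, Ptgs2 and Hbegf, between -2.66 and -2.31. Pthlh encodes parathyroid hormone-related protein, a secreted product of keratinocytes, and fell by 2.46 on the log2 scale.

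The largest rises outside those lists were more mixed. Cstf2t, a factor of mRNA 3' end formation, led with 4.21, 2.94, 3.24 and 4.65 on the 4 arrays and a mean of 3.76 (SE 0.13, n = 2, limma adjusted p = 0.00056). Cysrt1, a cysteine-rich keratinocyte protein, rose by 3.44, and the kallikrein protease gene Klk12 rose by 2.99. Rhox5, a homeobox gene of the reproductive tract, was at 3.19, with its silenced channel saturated on 3 of 4 arrays. Tslp, an epithelial cytokine, rose by 2.86, S100a9 by 2.72 and the stromelysin gene Mmp3 by 2.71. The remaining genes among the largest 15 rises were Prl2a1, Rps6kl1, Prl2c3, Fam149a, Pbxip1, Pcolce, Cx3cl1 and Dynap, between 2.47 and 2.86. Pcolce encodes an enhancer of procollagen processing.

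**Figure D3:**
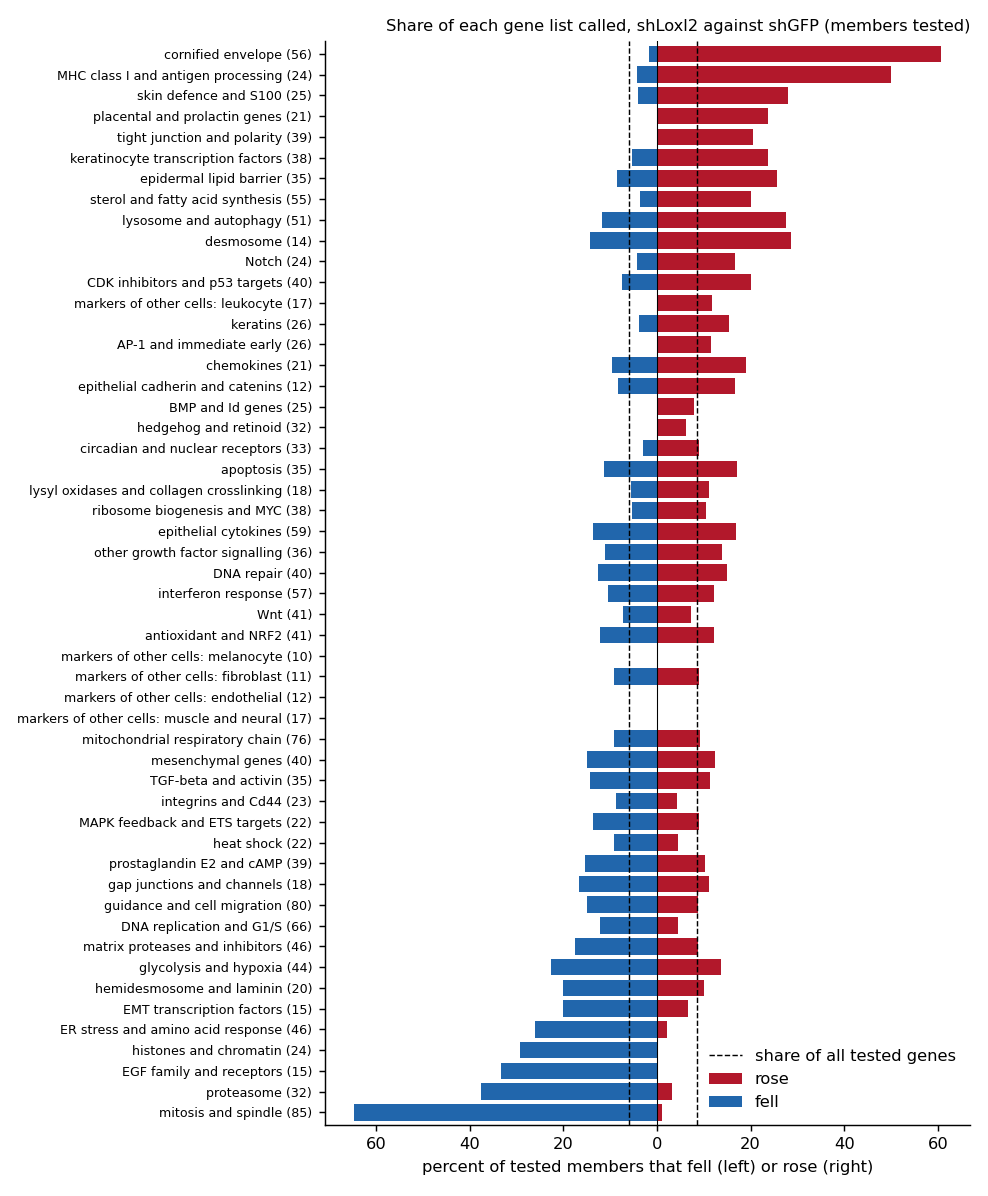
Bars give the percent of tested members of each gene list that rose (right, red) or fell (left, blue), with the number tested in brackets; dashed lines mark the shares over all genes, 8.49% and 5.97%. Cornified envelope (60.7%) and MHC class I genes (50%) reach farthest to the right, and mitosis (64.7%) and proteasome genes (37.5%) farthest to the left.

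The EGF family separated into ligands and receptors. Falls numbered 5 and rises 0 among the 8 ligands tested, whose median was -1.96, and of 7 receptor and receptor-inhibitor genes none passed. Nrg1, the neuregulin ligand of ERBB receptors (chromosome 8, 33303332 to 33303391, mm8), read -3.05, -2.84, -2.13 and -1.90 on the 4 arrays. Its mean was -2.48 (5.58-fold lower, SE 0.26, n = 2, limma adjusted p = 0.0047), and a second Nrg1 probe gave -2.12. Hbegf fell by 2.31 on the log2 scale, and Ereg (epiregulin, -2.29) and Epgn (epigen, -1.88) fell too. Areg (amphiregulin) was at least 4.10-fold lower, a bound because its control channel was saturated on all 4 arrays, and the ligand median rests in part on its measured value of -2.04. Each of these 5 ligands was below 0 on all 4 arrays and nearer to 0 in replicate 2. The dimmer probe of Ereg gave -0.40 and did not pass (limma adjusted p = 0.11). Tgfa (-0.20), Egfr (-0.21), Erbb2 (0.24) and Erbb3 (-0.09) did not pass, and Erbb3 was above background in only 1 of 4 channels on either side.

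Genes read as outputs of ERK signalling gave no common direction. Of 22 MAPK feedback and ETS target genes tested, 2 rose and 3 fell, and 4 and 2 without replicate 1. Hmga2, a chromatin protein of proliferating cells, fell by 1.49, and Phlda1 was at -1.28 but at -1.06 (limma adjusted p = 0.10) without replicate 1. The larger rise was of the receptor gene Il1rl1 (2.01), which is also counted in the cytokine list. The phosphatase gene Dusp4 rose by 0.83, and by 1.27 on its dimmer probe. Dusp6 (-0.77, limma adjusted p = 0.081), Spry2 (-0.20) and Etv4 (0.46) did not pass. Among 26 AP-1 and immediate early genes 3 rose and 0 fell, and 4 and 2 without replicate 2, with Klf2, a zinc-finger factor, at 1.44. Fos (-1.04), Fosl1 (-0.48), Jun (0.23), Egr1 (0.35) and Myc (-0.19) did not pass, and Fos differed between the replicates, at -1.84 and -0.23.

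Of 22 genes of prostaglandin synthesis and reception, 4 fell and 2 rose, with a median of -0.054. Pla2g4a encodes the phospholipase that frees arachidonic acid, Ptgs2 the inducible cyclooxygenase, Ptges the terminal synthase and Ptger2 a receptor that raises cAMP. Pla2g4a fell by 1.28 (SE 0.14, n = 2, limma adjusted p = 0.0052) and Ptges by 0.97. Ptgs2 (chromosome 1, 151869832 to 151869891, mm8) read -2.93, -2.78, -2.38 and -1.56, with a mean of -2.41, and its control channel was saturated on 1 array. Ptger2 read -2.54, -2.37, -2.58 and -3.16, with a mean of -2.66, and was above background in 2 of 4 silenced and 4 of 4 control channels. All 4 genes were below 0 on each array. Pde4b, a phosphodiesterase that breaks down cAMP, fell by 2.66, while its relative Pde4a rose by 1.40. The prostaglandin-reducing enzyme gene Cbr1 rose by 0.97, and Ptges2, a second synthase, was at 0.81 but did not pass without replicate 1 (0.77, limma adjusted p = 0.061). Over the whole list of 39 prostaglandin and cAMP genes, 4 rose and 6 fell. Ptger4, the other cAMP-raising receptor, was above background in 1 of 4 channels on each side, and Ptgs1 (-0.40) did not pass. The degrading enzyme Hpgd was not well above background in any silenced channel.

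Cytokine genes moved in both directions. Of 25 ligands tested, 5 rose and 6 fell. Il6 read -2.36, -3.90, -1.04 and -3.20, lowest with the silenced RNA in Cy5, and its mean was -2.63 (SE 0.28, n = 2, limma adjusted p = 0.0049). Il11, of the same receptor family (-1.86), Il24 (-1.66) and the alarmin Il33 (-1.43) also fell. Il1a was at -1.25 and at -0.76 without replicate 1 (limma adjusted p = 0.15). In the other direction, Tslp read 2.11, 2.48, 3.43 and 3.41, higher in replicate 2, with a mean of 2.86 (SE 0.26, n = 2, limma adjusted p = 0.0032). Csf1, the macrophage growth factor, rose by 1.01 and Il1f6 by 1.098. Among 34 receptors and feedback genes, 5 rose and 2 fell. Il1rl1, the receptor for Il33, rose by 2.01, Nfkbia and Socs1, inhibitors of NF-kappaB and JAK signalling, rose by 1.30 and 1.26, and Nfkbiz fell by 1.13. Socs3 was at -0.08 and did not pass.

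Of 21 chemokine genes, 4 rose and 2 fell, the falls numbering 1 without replicate 1. Ccl2, which attracts monocytes, read 1.88, 2.06, 2.44 and 2.64, with a mean of 2.25 (4.78-fold, SE 0.19, n = 2, limma adjusted p = 0.0027). Its neighbour in function Ccl7 rose by 1.19. Cx3cl1, a membrane-bound chemokine, was 5.58-fold higher by its brighter probe, while the dimmer one gave 0.20 and did not pass (limma adjusted p = 0.49). Cxcl16 was at 1.15, and at 0.74 without replicate 2 (limma adjusted p = 0.067). Ccl27a, a skin T cell chemokine, fell by 1.02. The neutrophil chemokines Cxcl1 (-0.56), Cxcl2 (-0.37) and Cxcl5 (-0.56) did not pass.

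**Figure D4:**
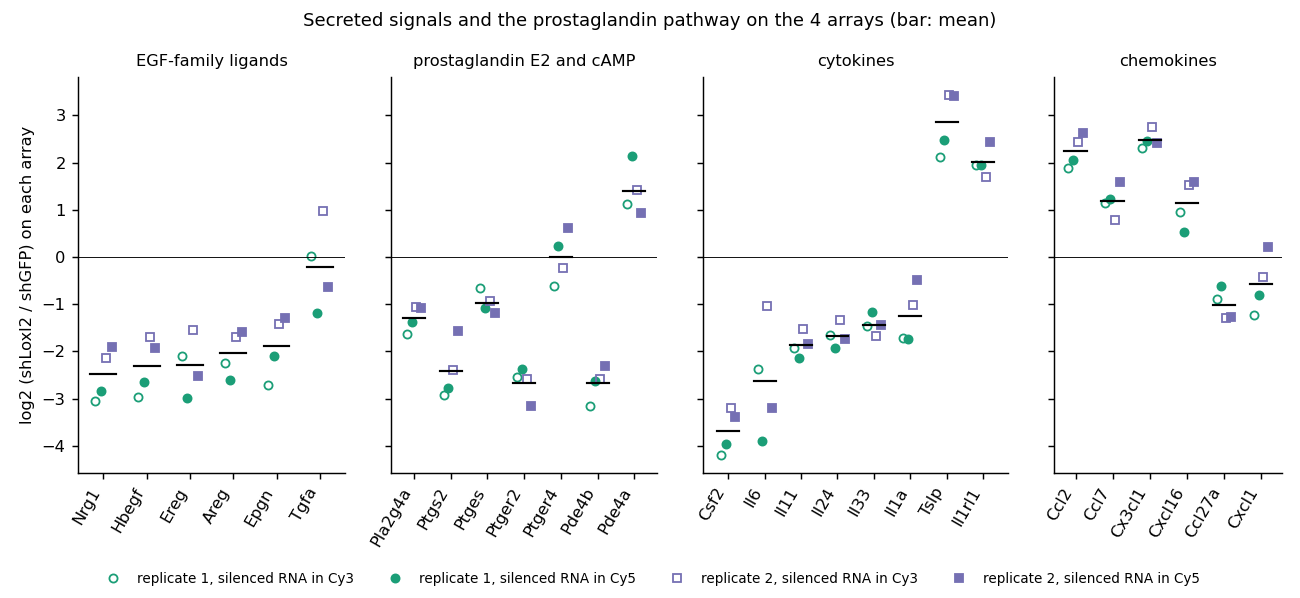
Points are log2 ratios of shLoxl2 over shGFP on each of the 4 arrays (circles replicate 1, squares replicate 2, open with silenced RNA in Cy3, filled in Cy5), and the bar is the mean. All points of 5 EGF-family ligands lie below 0, Tgfa scatters around 0, and Csf2 (-3.69) and Tslp (2.86) mark the extremes.

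Other growth factor genes were less uniform. Of 36 genes of the FGF, VEGF, HGF, KIT, IGF and PDGF families, 5 rose and 4 fell, and 3 and 4 without replicate 2. The receptor tyrosine kinase gene Axl read 2.04, 1.19, 2.30 and 1.88 and rose by 1.85 (SE 0.15, n = 2, limma adjusted p = 0.0024). Igfbp2, an IGF-binding protein, fell by 2.42 and Fgf18 by 1.64, each above background in 2 of 4 silenced channels and all control channels. Vegfa (-0.63, limma adjusted p = 0.099) and Met (-0.05) did not pass. Among 35 TGF-beta and activin genes 4 rose and 5 fell, the rises numbering 2 without replicate 1 and 2 without replicate 2. Fst read -2.94, -2.69, -2.81 and -2.63 and its relative Fstl1 fell by 2.01, while the activin subunit Inhba did not pass and differed between replicates, at -0.49 and 0.48. The BMP list had 2 rises and 0 falls among 25 genes, the hedgehog and retinoid list 2 and 0 among 32 (1 and 2 without replicate 1), and the Wnt list 3 and 3 among 41, shares near or under the background. Without replicate 1 the BMP list had 0 rises and 1 fall and the Wnt list 1 and 1. Wnt10a rose by 1.37. In the Notch list 4 of 24 rose and 1 fell, the rises numbering 2 without replicate 1, with Hes6 at 1.18 and Numbl at -1.004, whereas the receptor Notch1 at 0.90 did not pass without replicate 1 (0.50, limma adjusted p = 0.18).

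MHC class I genes were higher as a group. Of 24 tested genes of class I presentation, 12 rose and 1 fell, with a median of 0.63, and 17 were above 0 in both replicates. H2-K1, a classical class I heavy chain (chromosome 17, 33606564 to 33606623, mm8), read 1.05, 0.95, 1.30 and 0.87 and was 2.06-fold higher (SE 0.11, n = 2, limma adjusted p = 0.0045), with its silenced channel saturated on 2 arrays. H2-D1 rose by 0.91. The non-classical genes H2-Q7, H2-Q10, H2-T23, H2-Q5, H2-Q2, H2-T22 and H2-Q1 rose by 1.07 to 1.40. These genes are near-identical in sequence, so their probes may read each other's transcripts, and a second H2-Q10 probe gave 0.35 and did not pass. Tapbp, the peptide-loading protein tapasin, rose by 1.23 and the peptide transporter gene Tap2 by 0.79. H2-K1 and Tap2 were named after their values were seen. B2m, the light chain, was at 1.73 in replicate 1 and 0.41 in replicate 2 and did not pass (1.07, limma adjusted p = 0.069). The immunoproteasome genes Psmb9 (-0.18) and Psmb10 (0.34) did not pass, Psmb8 was not well above background in any silenced channel, and the proteasome activator Psme2 fell by 0.88. Of 17 leukocyte markers 2 rose, Cd68 at 0.66, which did not pass without replicate 1 (0.61, limma adjusted p = 0.072), and H2-Aa at 0.57, with unlike signs on the 4 arrays. Their part in the class I values was not tested.

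The interferon list as a whole showed no such shift. Of its 57 tested genes, 7 rose and 6 fell, with a median of 0.10. Irf5 rose by 1.34 and Irgm1 by 0.83. Ifi204, Ifi202b and Ifi211, sensors of nucleic acid in the nucleus or cytosol, fell (-2.04, -1.67 and -1.62), each below 0 on every array. They are close paralogs, and their probes may share signal. Irf7 (-0.01) and Ifit1 (-0.06) did not pass. Isg15 was at 0.95 and did not pass without replicate 1 (0.54, limma adjusted p = 0.12), and the number of rises was 3 without replicate 1 and 9 without replicate 2.

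More lysosomal genes than the background share rose. Of 35 lysosome genes 13 rose and 3 fell, with a median of 0.39, against 1 and 3 of 16 autophagy genes. The falls of both groups, 6 in all, numbered 2 without replicate 1 and 2 without replicate 2, while the rises, 14 in all, numbered 10 and 14. Ctsa, the protective protein cathepsin A (chromosome 2, 164530494 to 164530553, mm8), read 2.08, 1.97, 2.24 and 1.94 and was 4.16-fold higher (SE 0.11, n = 2, limma adjusted p = 0.00088). The protease cathepsin D gene Ctsd rose by 1.24. The hydrolase genes Gusb, Ctsz and Tpp1 and the membrane protein gene Lamp1 rose by 0.97 to 1.12. Ctsh, another cathepsin, fell by 1.15, and Atg12, part of the autophagy conjugation system, fell by 0.78. Mcoln1, a lysosomal calcium channel, rose by 0.87 on its brighter probe and was at 0.32 on the other, which did not pass (limma adjusted p = 0.28).

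The E-box TCACGTGA is the core of the element bound by TFEB, a regulator of lysosomal genes. It lay within 250 bases before to 50 bases after the start of 2 of 11 lysosome and autophagy genes that rose and had a RefSeq promoter (18.2%), of 1 of 2 that fell, of 3 of 24 that did not pass (12.5%), and of 1.49% of the promoters of 13058 tested genes. The letters were searched on both strands, and a match is a description only. The 120 bases before the start of the 2 genes are shown with the E-box in capitals (RefSeq, GRCm38.p6), Ctsd at chr7:142387828-142387947 on the minus strand and Mcoln1 at chr8:3500399-3500518 on the plus strand.
Ctsd: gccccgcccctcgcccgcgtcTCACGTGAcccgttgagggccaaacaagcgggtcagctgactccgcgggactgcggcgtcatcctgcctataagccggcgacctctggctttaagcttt
Mcoln1: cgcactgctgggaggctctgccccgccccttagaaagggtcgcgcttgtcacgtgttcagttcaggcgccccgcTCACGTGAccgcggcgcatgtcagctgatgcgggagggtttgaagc

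Proteasome genes were lower by smaller amounts. The median of 32 tested proteasome genes was -0.27; falls numbered 12, none of 2-fold or more, and rises 1. Psmb7, a catalytic subunit, read -0.49, -0.91, -0.46 and -1.10 and fell by 0.74 (SE 0.12, n = 2, limma adjusted p = 0.015). Psmd14, the deubiquitinating subunit, fell by 0.67. Psmc5, an ATPase of the base, was lowest at -0.94 and did not pass without replicate 2 (-0.72, limma adjusted p = 0.067). The falls numbered 7 without replicate 1 and 5 without replicate 2.

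Among 46 genes of ER stress and of the response to amino acid shortage, falls numbered 12 and rises 1, and the median was -0.21. The largest single falls were in the amino acid branch, where 7 of 31 genes fell and 1 rose (median -0.17). In the ER stress branch, the unfolded protein response, 5 of 15 fell and 0 rose (median -0.32). Cth, which makes cysteine from cystathionine, read -1.95, -1.80, -1.45 and -1.48 and fell by 1.67 (SE 0.15, n = 2, limma adjusted p = 0.0029). Nars, the asparaginyl-tRNA synthetase, fell by 1.53, and the mitochondrial folate enzyme gene Mthfd2 (-0.997) and the stress factor Ddit3 (-0.94) fell too. Atf6, a sensor of unfolded protein in the ER, fell by 0.87. Chac1, which degrades glutathione, rose by 1.17. The chaperone Hspa5 (-0.33) and the asparagine synthetase Asns (-0.35) did not pass, and the falls numbered 5 without replicate 1 and 7 without replicate 2. Of 22 heat shock genes, 1 rose and 2 fell, and 1 and 0 without replicate 1.

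Hypoxia and glycolysis genes were split. Of 44 tested, 10 fell and 6 rose. Adm, the peptide adrenomedullin, read -2.48, -1.70, -1.79 and -1.82 and fell by 1.95 (SE 0.13, n = 2, limma adjusted p = 0.0014). Bnip3, a mitochondrial death and mitophagy protein, fell by 1.42, Hif1a itself by 1.39, the hexokinase gene Hk2 by 1.18 and Ero1a by 0.97. In the other direction, the largest rise was of Hmox1 (1.98), which is also counted in the antioxidant list. Pfkfb4 rose by 1.07 and Ddit4, an inhibitor of mTOR, by 0.93. The glucose transporter Slc2a1 was at 0.00, and Car9 differed between replicates, at 0.35 and -1.10. Without replicate 1 the rises numbered 3 and the falls 10.

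In the antioxidant list 5 of 41 genes rose and 5 fell, and 6 and 3 without replicate 2. Hmox1, which degrades haem, read 1.69, 2.12, 2.11 and 1.99 and was 3.94-fold higher (SE 0.11, n = 2, limma adjusted p = 0.001). The metallothionein genes Mt2 and Mt1 rose by 1.67 and 0.89. Aldh3a1, an aldehyde dehydrogenase of epithelia, fell by 2.06 on the log2 scale, and the quinone reductase gene Nqo1 was at -1.86 and fell. The Nqo1 value rested in part on 1 array, which read -3.57 beside -1.58, -1.29 and -0.99 on the others. Of 76 respiratory chain genes 7 rose and 7 fell, 9.21% each way. In that list Ndufa10 was at -1.01 and Uqcr11 at 1.03, and without replicate 1 it had 1 rise and 8 falls and without replicate 2 3 and 4.

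**Figure D5:**
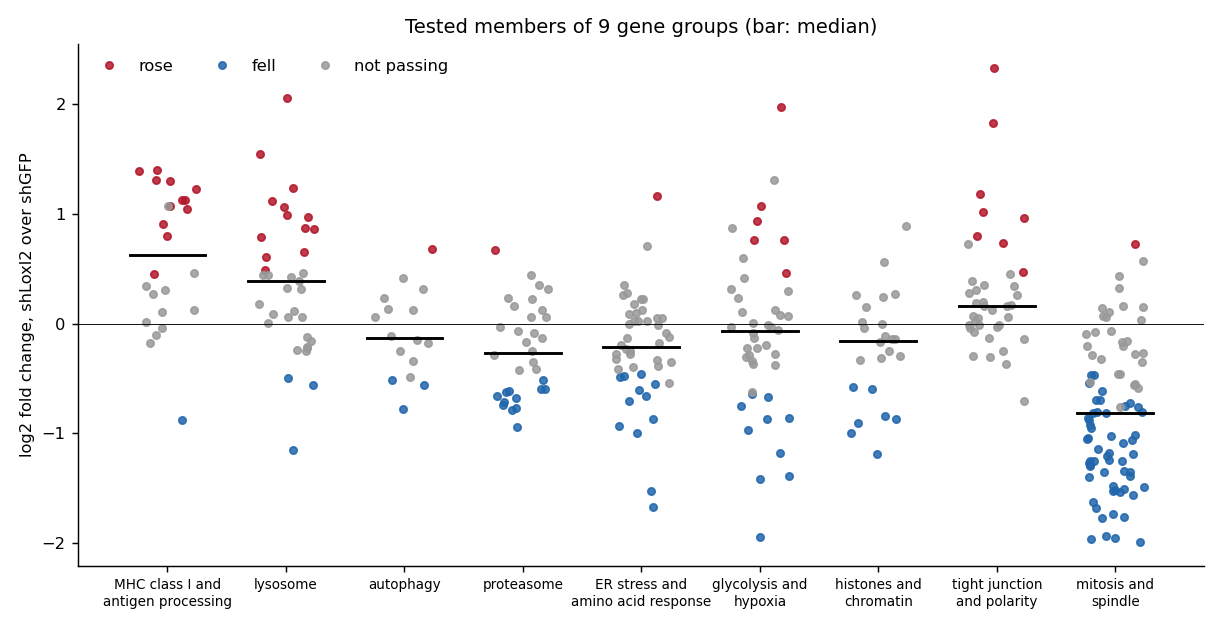
Each point is a tested gene of 9 groups, with its log2 fold change of shLoxl2 over shGFP; red genes rose, blue genes fell, grey genes did not pass, and the bar is the median. The medians run from 0.63 for MHC class I and 0.39 for lysosome genes to -0.27 for proteasome and -0.82 for mitosis genes.

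Most genes of mitosis and the spindle were lower. Of 85 tested, 55 fell and 1 rose (the microtubule regulator Stmn1, at 0.72), 73 were below 0 in both replicates, and 38 fell by at least 2-fold. By role, 21 of 30 cyclin and kinase genes and 34 of 55 kinetochore and spindle genes fell. Ube2c, the ubiquitin-conjugating enzyme of mitotic exit, read -2.28, -2.02, -1.86 and -1.79 and fell by 1.99 (SE 0.13, n = 2, limma adjusted p = 0.0014). The mitotic cyclin gene Ccnb2 (-1.96), the kinetochore gene Zwilch (-1.96), the chromosomal passenger gene Cdca8 (-1.76) and Ect2, which starts cytokinesis (-1.74), also fell. Cenpe fell by 1.94 on its brighter probe and was at -0.39 on the other, which did not pass (limma adjusted p = 0.14). Mki67 was at -1.21, and at -0.80 without replicate 1 (limma adjusted p = 0.072). Foxm1, a transcription factor of mitotic genes, was at 0.04 and did not pass.

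DNA replication genes behaved otherwise. Falls numbered 8 and rises 3 among 66 tested, and the median was 0.028, beside -0.82 for the mitosis genes. The replication median was 0.13 in replicate 1 and -0.14 in replicate 2, and the falls numbered 5 without replicate 2. Orc6, of the origin recognition complex, fell by 0.74, and the chromatin assembly subunit gene Chaf1a rose by 0.74. Pcna (0.33), Mcm2 (-0.08) and Rrm2 (-0.48, limma adjusted p = 0.053) did not pass. Histone and chromatin genes went down where they moved, with 7 falls and 0 rises among 24. Asf1b, a histone chaperone, fell by 1.19, the HMG-box genes Hmgb2 and Hmgb1 by 0.999 and 0.84, and Suz12, of the Polycomb repressive complex, by 0.91. The methyltransferase of that complex, Ezh2, was at -0.87 and did not pass without replicate 1 (-0.63, limma adjusted p = 0.071).

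Promoters of the mitosis genes are shown because these members moved together. The CHR element (TTTGAA) and the CCAAT box (CCAAT) are sites by which such genes are tied to the cell cycle. On either strand, TTTGAA was present in 59.1% of 44 promoters of mitosis genes that fell, 64% of 25 of those that did not pass, and 14.3% of the promoters of all tested genes. For CCAAT the shares were 72.7%, 76% and 38.6%. Members that fell and members that did not pass thus had like shares. The 120 bases before the start of 4 genes that fell are shown with these motifs in capitals (RefSeq, GRCm38.p6), a motif on the other strand reading TTCAAA or ATTGG. Cdk1, Ect2 and Ube2c carry both within this stretch, and Ccnb2 carries CCAAT 3 times and TTTGAA 0 times. They lie at chr10:69352913-69353032 (Cdk1, minus strand), chr3:27153879-27153998 (Ect2, minus strand), chr2:164769809-164769928 (Ube2c, plus strand) and chr9:70421555-70421674 (Ccnb2, minus strand). Cdk1 (log2 fold change -1.24) was chosen for its promoter after its value was seen.
Cdk1: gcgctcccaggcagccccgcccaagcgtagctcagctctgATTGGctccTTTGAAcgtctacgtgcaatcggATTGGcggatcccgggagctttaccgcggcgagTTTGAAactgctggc
Ect2: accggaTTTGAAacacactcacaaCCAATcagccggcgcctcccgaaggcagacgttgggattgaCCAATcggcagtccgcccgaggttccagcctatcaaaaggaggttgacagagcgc
Ube2c: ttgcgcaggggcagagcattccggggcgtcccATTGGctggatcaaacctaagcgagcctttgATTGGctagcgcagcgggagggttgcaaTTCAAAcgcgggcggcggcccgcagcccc
Ccnb2: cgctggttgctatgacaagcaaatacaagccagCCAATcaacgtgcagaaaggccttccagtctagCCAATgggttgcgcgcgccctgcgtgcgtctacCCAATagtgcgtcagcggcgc

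Among CDK inhibitors and p53 targets 8 of 40 rose and 3 fell, and 5 and 2 without replicate 1. The growth arrest genes Gadd45b and Gadd45g rose by 2.25 and 1.37, while Gadd45a fell by 0.85. Cdkn1a (-0.13) and Mdm2 (0.06) did not pass. Rb1, the retinoblastoma protein, fell by 0.70. In DNA repair 6 of 40 rose, by up to 2.13 on the log2 scale, and 5 fell. At least 2-fold were 2 of these rises and 1 fall, that of the recombination gene Trip13 (-1.12). Without replicate 1 the repair list had 1 rise and 3 falls. Of 35 apoptosis genes 6 rose and 4 fell, and 1 and 1 without replicate 1. Bcl2l11, the BIM death protein, rose by 0.96.

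Genes of the cornified envelope had the largest rises of all lists, 34 of 56 tested with 1 fall and a median of 1.18. By class, 10 of 11 small proline-rich genes, 9 of 11 late cornified envelope genes, 9 of 16 precursor and barrier genes and 6 of 18 crosslinking enzymes and proteases rose. Probes of the first and second class may read each other's transcripts, since those genes are near copies. Filaggrin (Flg, 0.48, limma adjusted p = 0.064) and involucrin (Ivl, -0.09) did not pass, and Serpinb5 (maspin) fell by 1.47. Loricrin (Lor), a main envelope protein, read 1.58, 2.66, 1.58 and 2.45, higher with the silenced RNA in Cy5, and rose by 2.07 (SE 0.11, n = 2, limma adjusted p = 0.00088). A loose pattern of the AP-1 type, TGANTCA with N any base, was searched on either strand, so matches such as TGAATCA count too. It was found in 34.5% of 29 promoters of envelope genes that rose, 28.6% of 21 that did not pass and 6.56% of those of all tested genes. It is shown in capitals in the 120 bases before Lor (chr3:92083143-92083262, minus strand, RefSeq, GRCm38.p6).
Lor: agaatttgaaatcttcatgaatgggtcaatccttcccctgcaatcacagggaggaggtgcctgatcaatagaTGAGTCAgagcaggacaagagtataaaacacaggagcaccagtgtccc

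Keratin genes changed selectively. Of 26 tested, 4 rose and 1 fell, with 6 rises without replicate 1. Krt16, of activated epidermis, was at 2.89 with its silenced channel saturated on 2 arrays, the suprabasal Krt10 rose by 2.15, Krt80 by 1.87 and the basal Krt15 by 0.94. Krt23, a keratin of simple epithelia, read -3.32, -3.15, -3.93 and -3.54 and was 11.2-fold lower. Krt14 (0.08), Krt5 (-0.40) and Krt1 (0.22) did not pass. Of 38 keratinocyte transcription factors 9 rose and 2 fell. The factors of late differentiation Maf, Zfp750, Ehf and Prdm1 rose by 0.85 to 1.72 and Sox9 by 1.48, although a dimmer Maf probe (0.55) did not pass. Trp63, the p63 factor of basal cells, read -1.47, -1.05, -1.24 and -0.83 and fell by 1.15 (SE 0.12, n = 2, limma adjusted p = 0.0045). Klf4 was at 0.68 and did not pass without replicate 1 (0.78, limma adjusted p = 0.061) or without replicate 2 (0.57, limma adjusted p = 0.092).

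Some lipid genes rose as well, but the list medians were near 0. The median was 0.030 for the epidermal lipid barrier list and 0.13 for the sterol and fatty acid list, beside 1.18 for the cornified envelope. In the epidermal lipid barrier list 9 of 35 genes rose and 3 fell, including the triglyceride synthase Dgat2 (1.47), the acid sphingomyelinase Smpd1 (1.25) and the epidermal lipoxygenase Aloxe3 (0.72). Alox12b, its partner, was at -0.05 and did not pass. The sterol and fatty acid list had 11 rises and 2 falls among 55, but the rises numbered 4 without replicate 1 and 4 without replicate 2. Fabp4, a fatty acid binding protein, rose by 1.36, Fasn by 0.80 and Fdps by 0.71, and Acsl4 fell by 0.81. The lipid barrier list had 5 rises and 0 falls without replicate 1, and 7 and 1 without replicate 2.

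Skin defence genes rose in 7 of 25 cases and fell in 1. S100a9, a subunit of calprotectin, read 2.90, 2.98, 2.38 and 2.63 and rose by 2.72, saturated on 1 array. Its partner S100a8 was at 0.98 and did not pass without replicate 1 (0.62, limma adjusted p = 0.14). The defensin Defb1 was not well above background in any control channel. It was at least 2.05-fold higher, a bound set against the lowest signals called above background, and it did not pass without replicate 1 (limma adjusted p = 0.098). S100a4 rose by 0.996 and the secreted ribonuclease Rnase4 fell by 1.22. The rises numbered 3 without replicate 1 and 8 without replicate 2.

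Placental genes formed a small set of rises, 5 of 21 (23.8%, beside 8.49% of all genes) with 0 falls. The largest was of Rhox5 (3.19), described above with its saturated channel. With probes that had a saturated spot left out, 3 of 19 rose. Prl2c3, a proliferin, was at 2.50 with its silenced channel saturated on 3 arrays, and Prl8a9 rose by 1.96. The proliferin genes are near copies of each other. The imprinted gene Phlda2 rose by 0.86.

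Tight junction and polarity genes moved upward where they passed, while the cadherin and desmosome lists moved in both directions. Of 39 tight junction and polarity genes, 8 rose and 0 fell. Crb3, a Crumbs polarity protein, read 2.37, 2.34, 2.22 and 2.40 and was 5.03-fold higher (SE 0.11, n = 2, limma adjusted p = 0.0006). The membrane protease gene Prss8 rose by 1.82 and the claudin gene Cldn1 by 0.96. There were 5 rises and 1 fall without replicate 1, and 8 and 1 without replicate 2. Cdh1, which encodes E-cadherin, rose by 1.08 and Epcam by 1.50, and these were above background in all silenced channels but in only 1 and 2 of 4 control channels. Of 12 cadherin and catenin genes 2 rose and 1 fell, the fall being of Ctnna1 (-0.90, and -0.64 without replicate 1). In the desmosome list 4 of 14 rose and 2 fell, with the envelope-linked plakins Ppl and Evpl at 1.09 and 1.07, and the desmosome falls in limma numbered 1 without replicate 1 and 0 without replicate 2.

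At the basement membrane, Itgb4, the integrin of hemidesmosomes (chromosome 11, 115824333 to 115824392, mm8), read -2.07, -1.60, -2.25 and -1.60 and fell by 1.88 (SE 0.11, n = 2, limma adjusted p = 0.0011). Col17a1, the hemidesmosome collagen, fell by 1.33, whereas the anchoring fibril collagen Col7a1 rose by 1.62. In all, 4 of 20 genes of this list fell and 2 rose, with 3 rises and 4 falls without replicate 1 and 1 and 4 without replicate 2. Of 23 integrin genes 1 rose and 2 fell in limma, numbers that became 0 and 0 without replicate 1 and 3 and 2 without replicate 2. Itgb1 at -0.90 did not pass (limma adjusted p = 0.078). The water channel gene Aqp5 rose by 2.47 and Aqp3, the usual one of basal keratinocytes, fell by 1.33. The connexin Gja1 was at -1.19 and did not pass without replicate 1 (-0.75, limma adjusted p = 0.054).

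Of 27 metalloprotease genes, 4 rose and 2 fell, with a median of -0.035. Mmp3 read 2.84, 2.59, 2.50 and 2.90 and was 6.53-fold higher (SE 0.11, n = 2, limma adjusted p = 0.0006), the collagenase gene Mmp13 rose by 1.53 and Mmp10 by 1.32, while the sheddase gene Adam9 fell by 0.88. Mmp9 (-0.56) did not pass. Of 14 plasminogen and coagulation genes 5 fell and 0 rose. Thbd, thrombomodulin, fell by 1.91, Serpinb2, an inhibitor of urokinase, by 1.90 and F3, tissue factor, by 1.71. The metalloprotease inhibitor Timp1 was at -1.21, and without replicate 1, when the falls among all 46 protease and inhibitor genes numbered 5 and not 8, it did not pass (-1.07, limma adjusted p = 0.061).

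Mesenchymal genes moved in both directions. Of 40 mesenchymal genes 5 rose and 6 fell, with a median of -0.061, and 3 and 3 without replicate 1. The matrix protein tenascin C (Tnc) fell by 1.66 on its brighter probe and was at -0.64 on the other, which did not pass. Col5a1 rose by 1.04. Of 11 fibroblast markers, S100a4 rose and Pdgfra fell (-0.82), and their part in these values was not tested. Of 15 EMT transcription factor genes 1 rose and 3 fell, and the falls in limma numbered 0 without replicate 1 and 3 without replicate 2, when the rises numbered 0. Snai2, the Snail relative Slug, read -1.71, -0.86, -1.01 and -0.28, with a mean of -0.97, and at -0.65 it did not pass without replicate 1 (limma adjusted p = 0.083). Among lysyl oxidase genes 0 of 4 passed, and of 14 genes for collagen hydroxylases and their like P3h3 rose by 1.02 and P4ha1 fell by 0.64.

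Guidance and migration genes had 7 rises and 12 falls among 80. Slitrk6 read -2.33, -3.68, -2.33 and -3.15, and the secreted guidance ligand gene Slit3 fell by 2.26, the semaphorin gene Sema3c by 1.12 and the ephrin receptor gene Epha1 by 1.07. Ephb3, a receptor of the B class, rose by 1.15, and the small GTPase genes Rhou and Rhod rose by 1.12 and 1.11. Diaph3, a formin that builds actin filaments, fell by 1.15. Without replicate 1 the falls numbered 6. In the ribosome biogenesis list 4 of 38 genes rose and 2 fell, and in the circadian and nuclear receptor list 3 of 33 rose and 1 fell, with the clock repressor Nr1d1 at -0.98. Without replicate 1 these counts were 2 and 0 for ribosome biogenesis and 2 and 2 for the circadian list, and without replicate 2 they were 2 and 4, and 1 and 5.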

How the data were processed

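The authors deposited spot intensity values of both channels. Agilent's Feature Extraction read them, in version 9.5.1.1 according to the files (per the file headers) or 6.1.1 in the submitters' processing notes. RNA was amplified linearly before labelling, per the labels. Log10 ratios of red over green, which the same program computed (per the file headers), were deposited too. On the shLoxl2 arrays 100% of entries in the deposited series table lay within 0.006 of those log10 ratios, in the direction Cy5 over Cy3, uncentred, with medians of 0.0578 to 0.103. Both were used as alternatives only. For the array of shSNAIL replicate 2, whose scanner intensities enter the estimate of spread, only 9.37% of entries lay that close.

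Mean intensities and background medians were corrected by normexp (offset 50) and normalized by loess in limma 3.58.1 (R 4.3.3, with the data.table package in version 1.17.8). Weight 0 was given to 736 control spots and to outlier spots (0.122% to 0.216%). Averaging the 21318 probe spots left 20868 probes. Tests covered the 19550 probes well above background on at least 2 arrays with both averages. RefSeq accessions (GRCm38.p6) named 14711 probes and the array files 6157. Coordinates are the files' own (mm8). Each gene is given by its brightest tested probe. Fits were lmFit and eBayes on the 2 dye averages, and 2 shSNAIL arrays shared only the estimate of spread (2 residual and 3.82 prior degrees of freedom). The median SE was 0.13. A gene not well above background in any channel of a group was given without a fold or, for Defb1, as a bound. The bound of Areg was for saturation.

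Members and lists were chosen with earlier results of these data known, and some genes belong to several lists. The rule for naming took Loxl2 and Snai1, then 15 rises and 15 falls of largest size with 1 sign on 4 arrays outside the cornified, keratin, mitosis and replication lists. In each list it took up to 8 genes a direction and preset defining genes. The pipeline was tested on simulated data. Alternatives covered background correction, scaling, filters, dye orientation and each replicate left out.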

Additional observations from a re-analysis of the deposited data

Results flagged for a closer look

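In 3 of 82 sets of 4 array values, 1 array stood apart from the other 3 by Dixon's test, and chance alone gives about 1 in 20. The median of the glycolysis and hypoxia list was -0.0559 on the replicate 2 array with silenced RNA in Cy5, beside -0.115, -0.121 and -0.119 on the others. The median of the apoptosis list was -0.244 on the replicate 2 array with silenced RNA in Cy3, beside 0.111, 0.091 and 0.0506. The median of the heat shock list was -0.154 on the replicate 1 array with silenced RNA in Cy3, beside -0.018, -0.0221 and -0.00908.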

How the results depend on the processing

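The count of 2749 probes passing limma's test became 4202 with the replicate number as a block, a pairing the labels do not support beyond the number and which rests on 2 pairs. It became 1548 with a normexp offset of 10, 800 with the scanner software's log ratios, 737 with a 2-fold minimum, 7550 with the silenced RNA in Cy5 alone and 6652 in Cy3 alone, where the dye effect does not cancel. With the value table's 4 shLoxl2 columns alone it was 0 (3463 at an unadjusted p under 0.05 by limma), and each list then had 0 calls: cornified envelope, mitosis, MHC class I, proteasome, EGF family, lysosome and autophagy, ER stress, and histones. Without a replicate it ranged from 1771 to 2831, the remaining shLoxl2 average being assumed to vary like the shSNAIL arrays. The other 8 alternatives kept it within 1.5 times. Among them, scaling of mean intensities between arrays (Aquantile) leaves the log ratios as they are, so its count could not differ. With scanner ratios the mitosis falls numbered 36, MHC class I rises 3, proteasome falls 0, EGF family falls 2, lysosome and autophagy rises 6, ER stress falls 2 and histone falls 2. With the offset of 10, proteasome falls were 5 and ER stress falls 6, and both ranged from 5 to 7 without a replicate. The cause was not tested. The naming rule asked for 1 sign on all 4 arrays, apart from preset defining genes. The sign of genes so named could not turn in 1 dye orientation or 1 replicate alone. Over all 2749 probes that passed, 41 passed with the opposite sign with the silenced RNA in Cy5 alone, and 9 in Cy3 alone. Of 377 named genes that passed, none changed sign under any alternative run. Without replicate 1 123 no longer passed, and without replicate 2 87. Among genes that did not pass, some turned sign, such as Acta2 (0.21 without replicate 1). In 1 dye orientation alone the sign turned, with Cy5 Axin2 (0.76), Irf7 (1.05), Krt18 (-0.59) and Loxl2 (-0.99), with Cy3 Foxm1 (-0.99), Hspb1 (0.61), Ifit1 (1.05), Krt8 (-0.49) and Plau (-0.66). A random block for the replicate could not be fitted, since no correlation could be estimated, and slide or scan date could not be blocked, since each array had its own slide. Dim green signal limits the low probes.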
